A study of Homo sapiens with 8 samples.

Results

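The genes described here are the hypoxia-inducible factor subunits HIF1A, EPAS1 and ARNT, the oxygen-sensing prolyl hydroxylases EGLN1 and EGLN3, and 5 genes known as hypoxia targets, namely BNIP3, BNIP3L, NDRG1, VEGFA and ADM. They were taken by symbol, 10 genes of the 58884 in the table, and each matched an Ensembl identifier. Poly(A) RNA was sequenced from C4-2, a castration-resistant human prostate cancer cell line derived from LNCaP. The cells were kept in ordinary culture, with no low-oxygen condition named, and received for 48 h either 1 µM DTHIB (also called E12), which the labels name as an inhibitor that acts directly on the heat shock factor HSF1, or the solvent DMSO. Each of the 2 groups had 4 libraries. All come from 1 cell line, and nothing states that the replicates came from separate cultures, so that a p-value reflects only how far these libraries spread, which may be technical.

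In cells with enough oxygen, the EGLN enzymes hydroxylate prolines of the HIF alpha subunits, HIF1A and EPAS1, which the ubiquitin ligase containing VHL then marks for destruction. When oxygen is short the alpha subunits persist, pair with ARNT and bind DNA at sites with the core letters ACGTG or GCGTG, near genes for glucose use, blood vessel growth and the removal of mitochondria. This control acts mainly on the protein, so transcript levels of the alpha subunits do not report the activity of the factors. EGLN1 and EGLN3 are themselves targets of the factors.

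The core promoters of the genes, from 250 bases before to 50 after the start of a RefSeq transcript (GRCh38.p14), were searched for ACGTG and GCGTG on both strands. An entry was matched for 7 of the 10 genes, and none for NDRG1, VEGFA and BNIP3L. Windows are shown for HIF1A (chr14:61695263-61695562, plus strand), EGLN1 (chr1:231422238-231422537, minus), EGLN3 (chr14:33951025-33951324, minus) and BNIP3 (chr10:131981874-131982173, minus). The first 3 of these genes fell under DTHIB and BNIP3 did not pass the test. These windows were chosen for that and because the letters of the HIF core are unevenly spread among them. Chosen in this way, they cannot relate the letters to the change. Each is written 5′ to 3′ along the gene, in lower case with matches on either strand in capitals.
HIF1A: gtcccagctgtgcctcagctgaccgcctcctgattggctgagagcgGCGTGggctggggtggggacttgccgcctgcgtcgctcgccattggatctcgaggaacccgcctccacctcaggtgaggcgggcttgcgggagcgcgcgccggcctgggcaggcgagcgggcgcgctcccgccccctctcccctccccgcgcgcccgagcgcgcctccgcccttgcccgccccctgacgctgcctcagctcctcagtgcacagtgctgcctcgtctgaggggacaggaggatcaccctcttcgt
EGLN1: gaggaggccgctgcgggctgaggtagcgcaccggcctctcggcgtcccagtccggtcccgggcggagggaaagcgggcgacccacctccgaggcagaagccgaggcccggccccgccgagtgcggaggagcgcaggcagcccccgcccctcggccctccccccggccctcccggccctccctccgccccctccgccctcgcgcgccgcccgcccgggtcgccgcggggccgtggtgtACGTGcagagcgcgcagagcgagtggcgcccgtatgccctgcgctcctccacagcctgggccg
EGLN3: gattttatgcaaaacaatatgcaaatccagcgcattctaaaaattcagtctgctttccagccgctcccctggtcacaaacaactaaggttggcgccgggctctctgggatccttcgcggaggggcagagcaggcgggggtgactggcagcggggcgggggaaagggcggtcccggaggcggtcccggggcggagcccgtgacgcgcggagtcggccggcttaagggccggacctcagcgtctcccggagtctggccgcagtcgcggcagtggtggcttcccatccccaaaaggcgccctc
BNIP3: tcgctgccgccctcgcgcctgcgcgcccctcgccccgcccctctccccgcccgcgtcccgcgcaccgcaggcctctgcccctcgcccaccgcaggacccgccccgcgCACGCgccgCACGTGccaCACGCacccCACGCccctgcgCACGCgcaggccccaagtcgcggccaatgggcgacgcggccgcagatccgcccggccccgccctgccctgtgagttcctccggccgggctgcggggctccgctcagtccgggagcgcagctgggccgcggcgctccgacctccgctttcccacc
The HIF1A window holds 1 GCGTG, which begins 204 bases before the start, the EGLN1 window holds 1 ACGTG, 13 bases before the start, and the EGLN3 window has neither. The BNIP3 window holds 6 matches that begin from 143 to 104 bases before the start. Of these, 2 are ACGTG on the overlapping strands of 1 palindrome, CACGTG, and 4 are GCGTG on the strand opposite to the gene. The promoters of EPAS1 and ADM hold 1 GCGTG each, and those of ARNT and the second HIF1A entry (chr14:61697462-61697761) neither motif. Of 35116 promoters of this length, 48.4% hold at least 1 of the motifs (21.4% ACGTG, 36.5% GCGTG), and 0.923% hold at least 6 matches. Among 11651 genes tested as described below, 62.6% hold at least 1 in their first listed promoter. Of those with a match 39.6% fell and 29.8% rose under DTHIB, and of those without 37.0% and 29.7%. The BNIP3 window is 80.7% G and C, against a median of 58.7% over all promoters, and of the 723 promoters at least as rich 1.66% hold 6 or more. These letters are a description of the sequence and not evidence of binding.

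The reads counted to genes summed to 27229291 to 30926053 per library. Values below are normalized counts, that is, reads scaled by the authors to a common library size, with mean ± SD over n = 4 libraries per group. A gene was tested when its mean over the 8 libraries was at least 10, and is said to have risen or fallen when limma, fitted to log2(normalized count + 1) of all 17194 tested genes, gave a Benjamini-Hochberg adjusted p under 0.05. Among all 17194 tested genes, 31.0% rose and 33.7% fell, the shares to set beside the marker calls that follow. All 8 luminal prostate markers were expressed (5 rose and 3 fell), with summed levels of 174435 to 176309 in DMSO and 219779 to 222243 in DTHIB. The summed levels of 6 endothelial markers were 191 to 226 and 171 to 210.5 (1 of 3 tested fell, CLDN5), of 6 blood cell markers 34.7 to 43.1 and 20.9 to 41.9 (1 of 3 tested fell, LYZ), and of 6 stromal markers 1156 to 1267 and 1381 to 1702 (2 of 3 tested rose, COL1A1 and TAGLN, and 1 fell, ACTA2; the TAGLN call was lost in 6 of 8 fits without 1 library). Of the markers that did not pass, ESAM fell past the threshold without DMSO replicate 2 (limma adjusted p = 0.0454), DMSO replicate 3 (0.0482) or DTHIB replicate 2 (0.0335) and under quantile normalization (0.0215), and CD68 rose past it without DMSO replicate 1 (0.0333). In those lists PECAM1, CDH5, TEK, PTPRC, CD3E, DCN and LUM held 3 reads or fewer in each library and HBB was listed at 0, while others were detected: VWF at 131 to 169 normalized counts in DMSO and 144 to 192 in DTHIB, CLDN5 at a mean of 34.4 ± 4.48 and 8.10 ± 4.67, COL1A1 at 918 to 1008 and 1177 to 1409, and TAGLN at 162 to 178 and 165 to 246. COL1A2 had at most 4.17 normalized counts in any library, where COL1A1 had at least 918. In such bulk samples fewer cells of a type and less RNA per cell cannot be told apart.

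Under DTHIB the hypoxia genes moved in both directions. NDRG1, EGLN3, HIF1A and EGLN1 fell, VEGFA rose, BNIP3 and EPAS1 did not pass the test, and ADM was near the limit of detection. Of the 9 members that could be tested, 6 fell (33.7% of all tested genes did), 1 rose (31.0%) and 2 did not pass. In 6 members the groups did not overlap, which held for 57.9% of all tested genes. The median log2 fold change was -0.26 over the 9 members and -0.0051 over all tested genes. Since 64.6% of all tested genes changed under the compound, a share of changed members is no result by itself, and each gene is described by its size and direction.

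**Figure D1:**
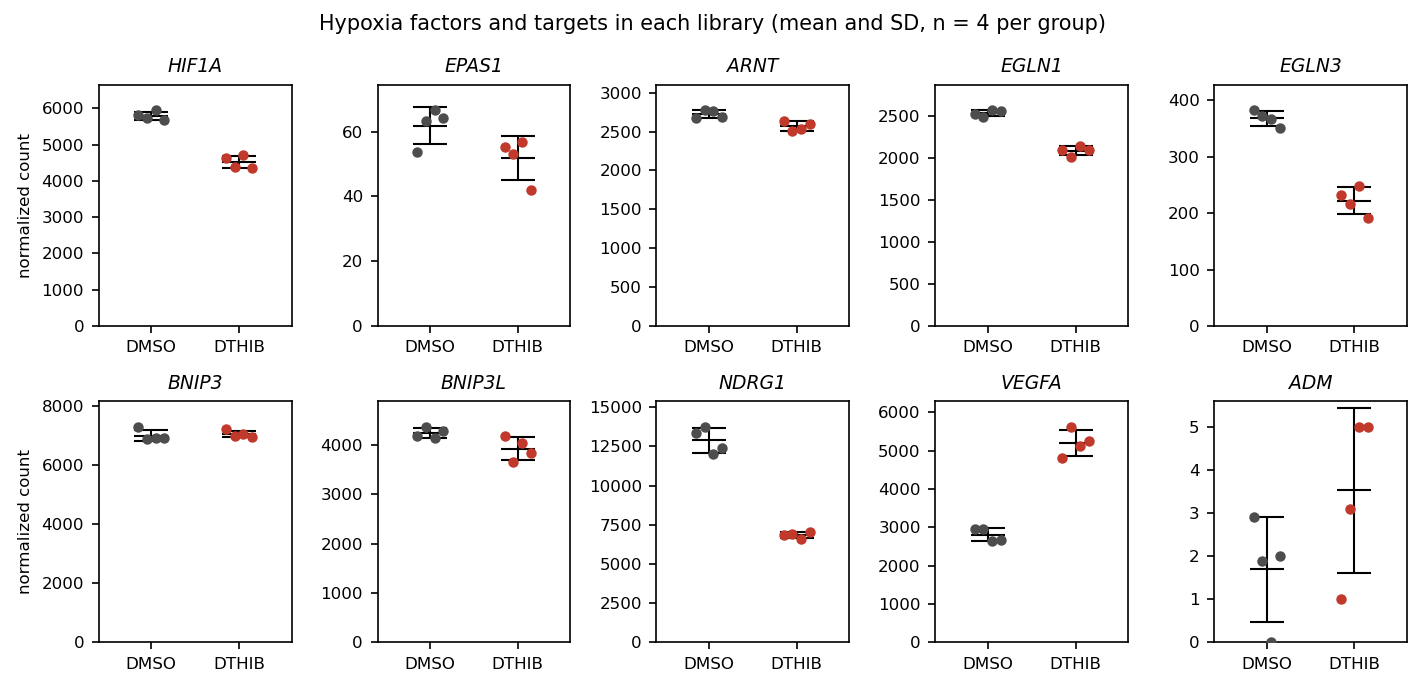
Normalized counts (vertical axis, linear from 0, a scale for each gene) of the 10 genes in each of 4 DMSO and 4 DTHIB libraries (points), with the mean and SD (bars). NDRG1, EGLN3, HIF1A and EGLN1 are lower in all 4 DTHIB libraries, VEGFA is higher in all 4, BNIP3 overlaps, and ADM stays below 5.

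HIF1A (chr14:61695513-61748259 of GRCh38) encodes the oxygen-regulated alpha subunit that most cells express. It had 5821, 5744, 5948 and 5682 normalized counts in the DMSO libraries and 4641, 4384, 4710.0 and 4370.0 in the DTHIB libraries. Every DTHIB library lay below every DMSO library. The mean went from 5799 ± 115 to 4526 ± 175 (log2 fold change -0.36, SE 0.032, limma adjusted p = 3.08e-08). The antisense RNA HIF1A-AS1 shares 117 exon bases, 2.27% of the HIF1A exons, and had at most 1.00 normalized count in any library.

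EPAS1 (chr2:46293667-46386703) encodes the other main alpha subunit and was expressed at a low level. It had 53.6, 63.2, 66.6 and 64.1 normalized counts with DMSO and 55.2, 53.2, 56.9 and 41.9 with DTHIB. The groups overlapped, with DMSO replicate 1 among the DTHIB values and DTHIB replicate 4 below all others. The log2 fold change was -0.26, with a 95% interval of -0.56 to 0.05 (limma adjusted p = 0.13), an interval that holds both 0 and the fall of HIF1A. Without 1 library it ranged from -0.323 to -0.160, the latter without DTHIB replicate 4, and passed in none of the 8 fits (lowest adjusted p = 0.0851). Quantile normalization took EPAS1 past the threshold (log2 fold change -0.36, adjusted p = 0.0426). The log2 ratio of EPAS1 to HIF1A went from -6.53 ± 0.14 in DMSO to -6.43 ± 0.16 in DTHIB, a difference of 0.10 (SE 0.11), which did not pass a two-sided exact permutation test (p = 0.371, also after adjustment over the 3 ratios compared). That difference was 0.033 without DMSO replicate 1 and 0.181 without DTHIB replicate 4, and did not pass in either (adjusted p = 0.8 and 0.0857).

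ARNT (chr1:150809705-150876768), the partner of both alpha subunits, differed little. Its values were 2679, 2772, 2769 and 2684 in DMSO and 2640.0, 2502, 2536 and 2597 in DTHIB. The groups did not overlap, but the highest DTHIB library came close to the lowest DMSO library. The log2 fold change was -0.09, with a 95% interval of -0.15 to -0.02 (limma adjusted p = 0.0225). This call was lost with DESeq2 on the recovered reads (adjusted p = 0.0741), with no filter on low values (0.056), and without DMSO replicate 2 (0.0604), DMSO replicate 3 (0.064) or DTHIB replicate 2 (0.06). Under quantile normalization it turned to 0.0059 (adjusted p = 0.869). The authors' deposited DESeq2 comparison gave ARNT a log2 fold change of -0.085 with an adjusted p of 0.0427, under the threshold.

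The prolyl hydroxylases EGLN1 and EGLN3, which mark the alpha subunits for destruction, both fell. EGLN1 (chr1:231363751-231425044), the main such enzyme in most cells, had 2532, 2493, 2572 and 2561 normalized counts with DMSO and 2094, 2020.0, 2143 and 2101 with DTHIB. It was lower in all 4 treated libraries and fell by 17.7% (log2 fold change -0.28, SE 0.031, limma adjusted p = 5.47e-07). EGLN3 (chr14:33924231-34462774), a hydroxylase that hypoxia strongly induces in many cells, had 382, 372, 367 and 351 in DMSO and 232, 216, 249 and 191 in DTHIB. It too was lower in all 4 treated libraries and fell by 39.8% (log2 fold change -0.73, SE 0.079, limma adjusted p = 3.62e-07). The log2 ratio of EGLN3 to EGLN1 went from -2.78 ± 0.065 in DMSO to -3.23 ± 0.15 in DTHIB, a difference of -0.45 (SE 0.082). Its exact permutation p of 0.0286 is the smallest that 4 against 4 libraries allow. Adjusted over the 3 ratios it was 0.0857, which did not pass. A ratio at that p can pass only if another ratio reaches it too, so the adjusted test could not decide. Without DMSO replicate 1 the difference was -0.43. It passed there (adjusted p = 0.0429) only because the ratio of BNIP3L to BNIP3 reached the smallest possible p as well.

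BNIP3 and BNIP3L encode proteins of the outer mitochondrial membrane that bind the LC3 family and direct mitochondria to autophagy. BNIP3 (chr10:131966455-131982013) had 7295, 6877, 6912 and 6925 normalized counts with DMSO and 7210.0, 6977, 7052 and 6963 with DTHIB. The groups overlapped, with DMSO replicate 1 the highest of all libraries. The log2 fold change was 0.01, with a 95% interval of -0.05 to 0.07 (limma adjusted p = 0.767). Quantile normalization took it past the threshold (log2 fold change 0.07, adjusted p = 0.0253). The table lists 44 pseudogenes named for BNIP3, none above 45.9 normalized counts in any library. How shared reads were counted is not given, so their effect on the level of BNIP3 is not known.

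BNIP3L, on chromosome 8, had 4185, 4365, 4145 and 4276 normalized counts with DMSO and 4171, 3645, 4039 and 3840.0 with DTHIB. DTHIB replicate 1 lay within the DMSO range and the other 3 treated libraries below it. The log2 fold change was -0.11 (SE 0.038, limma adjusted p = 0.014). The call was lost without DTHIB replicate 2 (log2 fold change -0.08, adjusted p = 0.0517) and under quantile normalization (-0.03, adjusted p = 0.446). Exons of PNMA2 on the opposite strand cover 7.66% of those of BNIP3L, at 14.0 to 27.0 normalized counts, and those of SDAD1P1 share 56 bases, at 83.9 to 129. The log2 ratio of BNIP3L to BNIP3 went from -0.72 ± 0.062 in DMSO to -0.85 ± 0.067 in DTHIB, a difference of -0.12 (SE 0.046). It did not pass (exact permutation p = 0.0571, adjusted p = 0.0857) except without DMSO replicate 1 (adjusted p = 0.0429). There it passed only because the ratio of EGLN3 to EGLN1 reached the smallest possible p as well.

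NDRG1, on chromosome 8, had the lowest log2 fold change of the 9 tested members. It encodes a stress-responsive protein that hypoxia, androgens and iron depletion induce. Its values were 13357, 13746, 12025 and 12415 in DMSO and 6863, 6900.0, 6584 and 7013 in DTHIB. The lowest DMSO library was far above the highest DTHIB library. NDRG1 fell by 46.9% (log2 fold change -0.91, SE 0.038, limma adjusted p = 1.62e-12). The other 3 genes of the NDRG family, NDRG2, NDRG3 and NDRG4, also fell, where 33.7% of all tested genes did. Their log2 fold changes were -0.27, -0.11 and -0.57 (limma adjusted p = 1.14e-05, 0.00462 and 0.00227). The NDRG3 call was lost under quantile normalization (log2 fold change -0.03, adjusted p = 0.363).

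VEGFA, on chromosome 6, encodes the secreted factor that drives the growth of blood vessels and is induced by hypoxia, among other stresses. It was the member that rose. It had 2949, 2968, 2646 and 2679 normalized counts with DMSO and 4807, 5623, 5114 and 5241 with DTHIB. Every treated library lay above every DMSO library. The rise was 1.85-fold (log2 fold change 0.89, SE 0.047, limma adjusted p = 3.60e-11). VEGFA and NDRG1, both known as hypoxia targets, thus moved in opposite directions by similar amounts on the log2 scale.

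ADM (chr11:10304680-10307397), the gene of the vasodilator peptide adrenomedullin, was hardly detected and was not tested. The DMSO libraries held 3, 2, 0 and 2 reads and the DTHIB libraries 1, 3, 5 and 5. The summed reads were 7 in DMSO (exact Poisson 95% interval 2.81 to 14.4) and 14 in DTHIB (7.65 to 23.5); the intervals overlap and cover counting error only. They are not a test of a difference, and no fold change was computed here. The authors' deposited DESeq2 comparison gave ADM a log2 fold change of 0.31 (SE 0.28) with an adjusted p of 0.409, above the threshold.

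**Figure D2:**
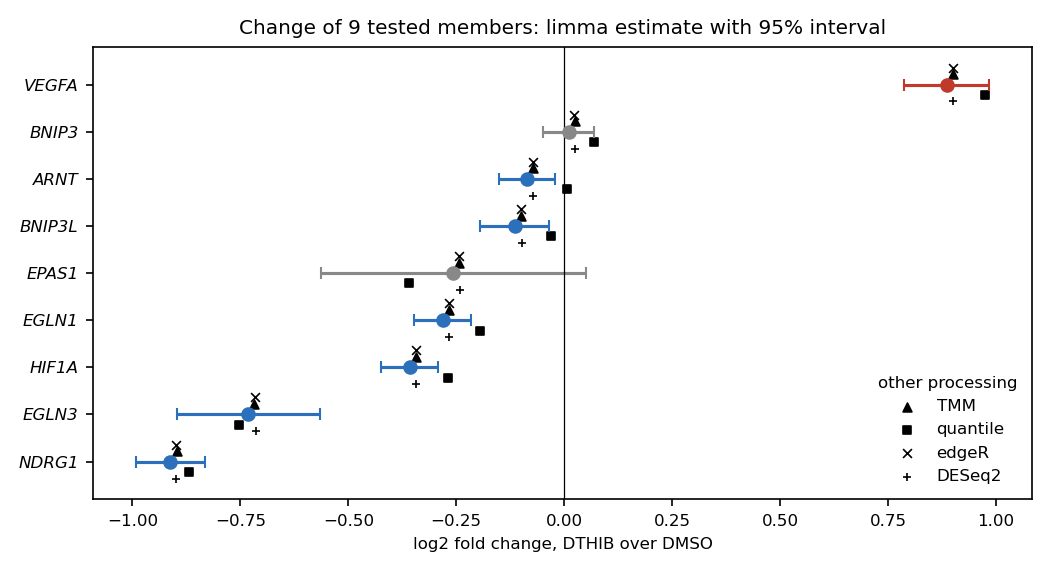
Log2 fold change of DTHIB over DMSO (horizontal axis) for the 9 tested genes, with the limma 95% interval (coloured: red rose, blue fell, grey did not pass) and the value under TMM, quantile normalization, edgeR and DESeq2 (black symbols). NDRG1 at -0.91 and VEGFA at 0.89 lie on either side of 0, and the quantile value of ARNT lies just above 0.

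Levels of different genes were compared per kb of annotated exon (all exons of a gene in GENCODE release 29 joined). In DMSO, BNIP3 (1315 ± 36.9 normalized counts per kb) and NDRG1 (1312 ± 81.5) were highest and overlapped. HIF1A (1126 ± 22.3) and BNIP3L (985 ± 22.8) came next, then ARNT (418 ± 7.89), EGLN1 (349.6 ± 4.88) and VEGFA (195 ± 11.9), with no overlap between neighbours. EGLN3 (47.7 to 51.9 per kb) and EPAS1 (8.47 ± 0.778) were far lower, so HIF1A was the more abundant alpha subunit transcript and EGLN1 the more abundant hydroxylase transcript of each pair. Under DTHIB, BNIP3 (1324 ± 21.3 per kb) stood alone at the top, BNIP3L (911 ± 53.5) and HIF1A (879 ± 33.9) overlapped, and NDRG1 (696 ± 18.5) came below both. VEGFA (360.1 ± 23.4) then overlapped ARNT (394 ± 9.46) and lay above EGLN1 (288 ± 7.06), with EGLN3 (30.2 ± 3.32) and EPAS1 (7.09 ± 0.929) lowest. Joined exons overstate the length of genes with many isoforms, such as VEGFA (14.4 kb), so that such a level is a low estimate.

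**Figure D3:**
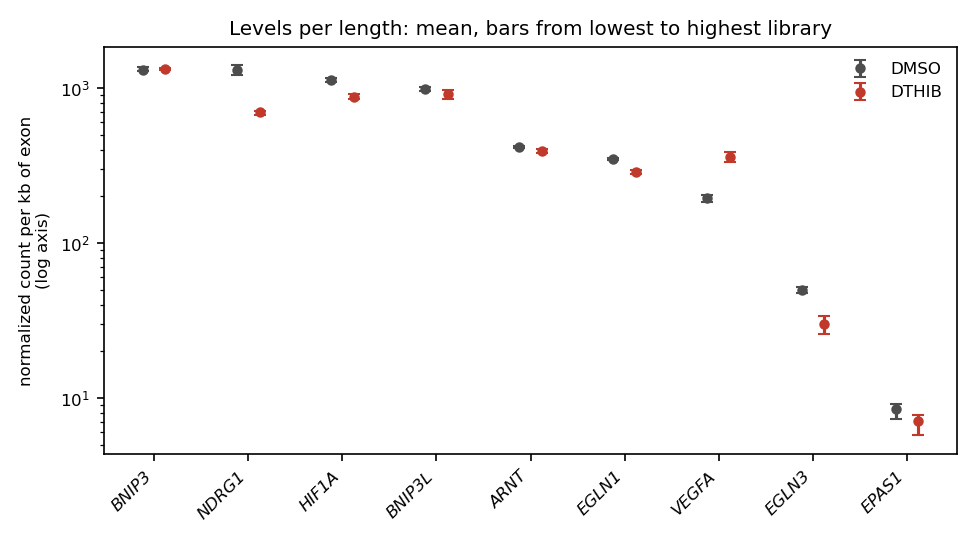
Normalized counts per kb of annotated exon (log axis) for the 9 tested genes in DMSO (grey) and DTHIB (red), as the mean with bars from the lowest to the highest of 4 libraries. VEGFA moves from below EGLN1 to above it, and NDRG1 from beside BNIP3 to below HIF1A.

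Other genes of the oxygen-sensing machinery moved both ways. Of 16 regulators and cofactors 15 were tested, of which 7 rose (31.0% of all tested genes did), 4 fell (33.7%) and 4 did not pass. The median log2 fold change was 0.10. RACK1, a ribosomal scaffold that also promotes HIF1A turnover, rose from 28266 ± 625 to 38117 ± 1185 normalized counts. CUL2, the scaffold of the VHL ubiquitin ligase, fell from 3259 ± 54.4 to 2519.6 ± 49.1, while VHL itself had a log2 fold change of 0.02 (95% interval -0.05 to 0.09) and did not pass. P4HTM, a membrane-bound prolyl hydroxylase, rose from 1311 ± 26.3 to 1676 ± 30.8, and the coactivator EP300 from 2810.1 ± 101 to 3767 ± 286. EGLN2, the third EGLN hydroxylase, rose from 68.6 ± 5.85 to 119.7 ± 9.70 normalized counts (log2 fold change 0.80, limma adjusted p = 1.02e-05), where EGLN1 and EGLN3 fell. EGLN2 and VHL were chosen for mention after their values were seen. Exons shared with other genes were looked for only in the members, and so not in EGLN2.

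Of 20 HIF targets of glucose use 18 fell (33.7% of all tested genes did), 1 rose (31.0%) and 1 did not pass. The median log2 fold change was -0.29. The lactate exporter SLC16A3 fell from 6488 ± 142 to 3919.5 ± 75.5 normalized counts. Lactate dehydrogenase LDHA fell by 0.72 on the log2 scale, and the glycolytic enzymes PGAM1 and PGK1 by 0.55 and 0.37. The gene that rose was PDK1 (0.18), the kinase that keeps pyruvate from mitochondrial oxidation, and HK2 (-0.05) did not pass; both are named after their values were seen.

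The other HIF targets were mixed, with 14 of 30 tested genes lower (33.7% of all tested genes) and 10 higher (31.0%). The median log2 fold change was -0.10. DDIT4, an inhibitor of mTORC1 signalling that several stresses induce, rose from 1627 ± 69.5 to 4588 ± 275 normalized counts. MXI1, an antagonist of MYC, rose by 0.49 on the log2 scale. TFRC, the transferrin receptor, fell by 0.48 and JMJD6, an oxygen-dependent hydroxylase, by 0.55.

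Of 14 other ligands and receptors of the VEGF and adrenomedullin systems, 9 could be tested. Of these, 2 rose (31.0% of all tested genes did) and 4 fell (33.7%), with a median log2 fold change of -0.21. ADM2, a peptide gene related to ADM, rose from 2330.2 ± 119.9 to 6412 ± 195 normalized counts. Per kb of exon ADM2 held 545 normalized counts under DMSO and 1499 in DTHIB, while ADM had at most 1.84 in any library. The ligand PGF fell from 51.4 ± 3.81 to 25.4 ± 8.65, the receptor CALCRL from 18.4 ± 4.17 to 6.89 ± 2.15, and the VEGF coreceptor NRP1 by 0.21 on the log2 scale. Of 13 tested mitophagy receptors and LC3 family genes, which act with BNIP3 and BNIP3L, 7 rose (31.0% of all tested genes did). The other 6 did not pass, and the median log2 fold change was 0.13. GABARAPL1 rose by 0.48, CALCOCO2 by 0.29 and MAP1LC3B by 0.28 on the log2 scale.

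**Figure D4:**
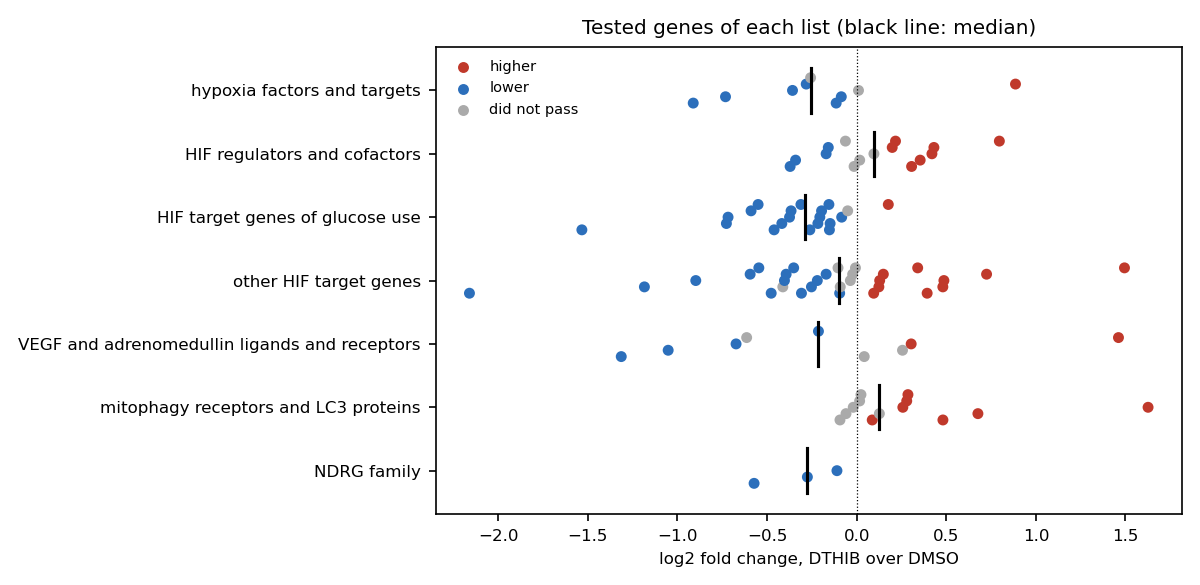
Log2 fold change of DTHIB over DMSO (horizontal axis) for each tested gene (points; red rose, blue fell, grey did not pass) of the hypoxia genes and of 6 related lists, with the median of each list as a black line. The glucose-use list lies almost wholly below 0 (median -0.29), while the regulators and the mitophagy list have medians of 0.10 and 0.13.

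Profiles over the 8 libraries were compared with those of 11650 genes with a mean of at least 100 normalized counts, by the root mean square difference of centred log2 values. The nearest to HIF1A were TFAM (0.0083), PSMD14 (0.012) and PSMC2 (0.014), against a spread of HIF1A within groups of 0.044. The nearest to NDRG1 were MESP2 (0.04), DTYMK (0.056) and RFWD3 (0.056), with a within-group spread of 0.069. Nearest to VEGFA came COL6A1 (0.028), RNF224 (0.041) and KIFC2 (0.044), with a spread of 0.091. For EPAS1 the nearest were MBIP (0.065), GAGE1 (0.066), of a family of near-identical copies, and GCSH (0.073), with a spread of 0.17. With 2 groups such likeness is mostly that of a single difference between them. As the smallest differences among 11650 genes, these values can lie below the spread through that choice alone.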

How the data were processed

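RNA of C4-2 cells, enriched for poly(A) per the labels' protocols, was compared between DTHIB and DMSO. The submitters' processing notes name DESeq2 2.11.40.2, featureCounts 1.6.3, StringTie 1.3.4, HISAT2 2.1.0, Trimmomatic 0.36.5 and the build GRCh38. They give no order, settings, annotation or strand. The authors deposited a signal per gene and library, by its name a DESeq2-normalized count. Their deposited DESeq2 table holds the mean signal, log2 fold change, standard error and Wald score, p-value and adjusted p-value.

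Values were whole multiples of 1 step per column (100% within 0.01), which gave the reads counted to genes, 27229291 to 30926053 per library. Genes with a mean of at least 10 were tested by limma 3.58.1 (R 4.3.3) on log2(normalized count + 1), with an expression trend, two-sided; this scale understates changes of low genes. Ratios were compared by exact permutation (numpy 2.4.6) and adjusted over 3; the planned ratio of VEGFA to ADM was not made because ADM was near 0. Libraries of a group differed beyond sampling noise (chi-square per gene of at least 2.39). Symbols matched 41967 of 58884 identifiers. All 10 members are named, up to 4 genes of each list by smallest adjusted p (some are not reported here), and the 3 nearest profiles of 4 members. Members and lists were chosen with earlier results of these data known. As alternatives, the pseudocount was set to 0.5 or 5, the filter to none or a mean of 50, the scaling to TMM or quantile, the tool to edgeR 4.0.16 or DESeq2 1.42.0 on reads, replicate numbers were used as a block, and libraries were left out singly. The fits were also run on simulated data in which only a small share of genes changed, with an outcome not reported here. In the real data 64.6% of tested genes changed, so those runs cannot show how scaling acts under so broad a change.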

Additional observations from a re-analysis of the deposited data

Results flagged for a closer look

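In BNIP3, DMSO replicate 1, with 7295 normalized counts, stood apart from the other 3 DMSO libraries (6877, 6912 and 6925). Its gap to the nearest was 0.884 of the range of the group, above Dixon's 95% critical value for 4 values. It was the 1 such value among 92 groups of 4 examined, where chance gives about 1 in 20. Without that library the log2 fold change of BNIP3 was 0.03 (limma adjusted p = 0.402), which did not pass.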

How the results depend on the processing

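HIF1A, EGLN1, EGLN3, NDRG1 and VEGFA kept their direction and call in all 17 alternatives, with log2 fold changes of -0.38 to -0.27, -0.29 to -0.19, -0.79 to -0.66, -0.94 to -0.87 and 0.85 to 0.97. Quantile normalization gave -0.3602 for EPAS1 and 0.0695 for BNIP3 (both now past the threshold), 0.0059 for ARNT and -0.0306 for BNIP3L (both lost), -0.0916 for the EPAS1 to HIF1A ratio (adjusted p = 0.486) and 2 HIF regulators lower. ARNT was also lost with no filter (-0.0858) and with DESeq2 on the recovered reads (-0.0714), though not in the authors' deposited DESeq2 comparison. The cause was not tested. Without 1 library, ARNT ranged from -0.0991 to -0.0733 (5 of 8 fits passed), BNIP3L from -0.144 to -0.0795 (7 of 8) and BNIP3 from -0.0006 (without DTHIB replicate 1) to 0.03. EPAS1 ranged from -0.323 to -0.160 and its ratio to HIF1A from 0.033 to 0.181 (0 of 8 passed in both). The ratio of EGLN3 to EGLN1 ranged from -0.4945 to -0.3789 and that of BNIP3L to BNIP3 from -0.1508 to -0.0947. With a mean of at least 50, 2 VEGF and adrenomedullin genes fell, fewer being tested, and without DTHIB replicate 1, 1 mitophagy gene fell, while 0 did with all libraries. List counts under alternatives were added after seeing the data. Same-numbered libraries did not deviate together (0 of 4 correlations above 0.1), which cannot show whether they were prepared as pairs. With the replicate number as a block 11058 genes changed, against 11110, and no member changed its call. The read-based tests called 11130.0 genes with edgeR and 10283 with DESeq2.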

Other observations

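Among HIF targets that modify collagen, the lysyl hydroxylase PLOD2 fell from 213 ± 14.7 to 93.3 ± 8.32 normalized counts, the lysyl oxidase LOX from 272 ± 18.2 to 146 ± 12.8, the prolyl hydroxylase subunit P4HA1 from 3031 ± 130.3 to 2294 ± 143 and PLOD1 from 5702 ± 121 to 4897 ± 137 (limma adjusted p = 1.12e-08, 9.24e-08, 3.67e-07 and 5.04e-06). P4HA2 (log2 fold change -0.04, adjusted p = 0.563) and LOXL2 (-0.0067, adjusted p = 0.977) did not pass. The glucose transporter SLC2A3 fell from 144 ± 19.2 to 49.6 ± 10.9 and the hormone STC1 from 139 ± 14.3 to 31.5 ± 11.7. VLDLR, a lipoprotein receptor, rose from 271 ± 20.2 to 449 ± 30.6. CA9, a common marker of hypoxia, had a mean below 1 normalized count in both groups. These genes were chosen after their values were seen.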
